A study of Mus musculus with 20 samples.

Results

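RAB genes encode small GTPases that mark the membranes of the secretory and endocytic routes. The family was followed across 20 single inner cell mass cells of mouse blastocysts (strain C57BL/6, embryonic day 3.5), with 1 Affymetrix expression array for each cell. Its members were the genes of the probe annotation whose symbol is Rab followed by a number and an optional letter, which gave 59 RAB genes on 132 probe sets, out of 18193 named genes on the array. Probe sets assigned to a single gene were used, and the probe set with the highest mean stood for its gene. Of the 59 genes, 38 had further probe sets and 21 had none. The labels name no treatment, and the cells formed 1 group. According to the design text, the inner cell mass was dissociated with trypsin, and of 55 cells picked without selection 50 passed a PCR screen that kept Oct4-positive, Cdx2-negative cDNA; 20 are analysed here. The labels tie no cell to an embryo, so the spread between cells includes any spread between embryos and between amplifications.

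A RAB protein is active with GTP bound and inactive with GDP bound. Exchange factors (GEFs) load GTP, GTPase-activating proteins (GAPs) end the active state, and prenyl anchors at the carboxyl end hold the protein on its membrane, from which a GDP dissociation inhibitor retrieves it. Each RAB recruits its own effectors, so that RAB5 marks early endosomes, RAB4 and RAB11 recycling endosomes, RAB7 late endosomes, RAB1 and RAB2 the route between endoplasmic reticulum (ER) and Golgi, and RAB3 and RAB27 vesicles of regulated secretion. In the later mouse embryo the visceral endoderm, which descends from the primitive endoderm, is known for its heavy endocytic traffic.

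RAB genes found in every cell had more CG dinucleotides around their start site than RAB genes found in 0 cells, as did genes in general. CG dinucleotides are clustered at the start sites of many broadly used genes. RefSeq promoter windows of 300 bases, from 250 bases before to 50 bases after the gene's start (build GRCm38.p6), were matched to 48 of the 59 RAB genes. The windows of the RAB5 genes Rab5a (chr17:53478984-53479283, plus strand) and Rab5b (chr10:128696219-128696518, minus strand), and of the RAB11 relatives Rab11a (chr9:64737707-64738006, minus strand) and Rab25 (chr3:88548230-88548529, minus strand), are shown as relatives that were found in all 20 cells and in 0 cells by the probe set used. They were chosen after the values were seen, and capitals mark the CG dinucleotides.
Rab5a: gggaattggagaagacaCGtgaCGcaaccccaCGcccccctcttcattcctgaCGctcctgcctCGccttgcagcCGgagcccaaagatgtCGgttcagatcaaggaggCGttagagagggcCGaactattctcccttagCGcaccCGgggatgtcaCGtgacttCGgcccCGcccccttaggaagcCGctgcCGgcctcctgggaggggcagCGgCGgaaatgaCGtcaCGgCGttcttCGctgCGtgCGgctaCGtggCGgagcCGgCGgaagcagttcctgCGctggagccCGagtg
Rab5b: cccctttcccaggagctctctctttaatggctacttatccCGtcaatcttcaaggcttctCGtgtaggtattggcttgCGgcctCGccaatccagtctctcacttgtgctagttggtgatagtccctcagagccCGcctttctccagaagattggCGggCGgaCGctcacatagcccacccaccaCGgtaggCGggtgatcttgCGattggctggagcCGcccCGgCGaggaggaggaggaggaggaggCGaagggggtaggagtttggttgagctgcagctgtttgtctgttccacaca
Rab11a: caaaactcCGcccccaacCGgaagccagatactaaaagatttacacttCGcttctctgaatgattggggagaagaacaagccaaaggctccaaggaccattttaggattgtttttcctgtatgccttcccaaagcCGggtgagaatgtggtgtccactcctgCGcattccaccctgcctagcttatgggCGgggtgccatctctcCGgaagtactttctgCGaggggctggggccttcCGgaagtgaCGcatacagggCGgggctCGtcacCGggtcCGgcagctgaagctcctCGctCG
Rab25: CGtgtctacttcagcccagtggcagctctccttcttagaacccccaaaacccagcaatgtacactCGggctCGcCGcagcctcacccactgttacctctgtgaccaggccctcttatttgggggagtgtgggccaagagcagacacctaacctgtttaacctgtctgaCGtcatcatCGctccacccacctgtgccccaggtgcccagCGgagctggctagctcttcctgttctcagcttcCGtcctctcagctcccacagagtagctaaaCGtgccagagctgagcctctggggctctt
The window held 30 CG dinucleotides for Rab5a and 15 for Rab5b, and 16 for Rab11a and 9 for Rab25. Over all matched RAB genes, with several windows of a gene averaged, the median was 27 for the 11 genes above the floor of signal defined below in all 20 cells, and 11 for the 11 genes above it in 0 cells. The same order held over all measured genes with a window, with a median of 23 for the 2196 genes found in all 20 cells and 8 for the 5764 found in 0 cells. Across the 48 RAB genes the count of CG dinucleotides and the number of cells had a Spearman correlation of 0.44 (Pearson's r = 0.37), given as a description across genes that share the same arrays. The classes between did not follow this order: the median was 23 for the 20 RAB genes found in 3 to 19 cells and 29.25 for the 6 found in 1 or 2 cells, above that of the genes found in every cell. Rab9 was found in 20 cells with 9 CG dinucleotides, and Rab6b in 1 cell with 42. The motif CACGTG, which reads the same on both strands, was in a window of 6 of the 48 RAB genes (12.5%), among them Rab5a, against 10.2% of the measured genes with a window. The motif AGATAA on either strand was in 2 of 48 (4.17%), against 9.54%. A match to either motif is a match of letters only.

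**Figure D1:**
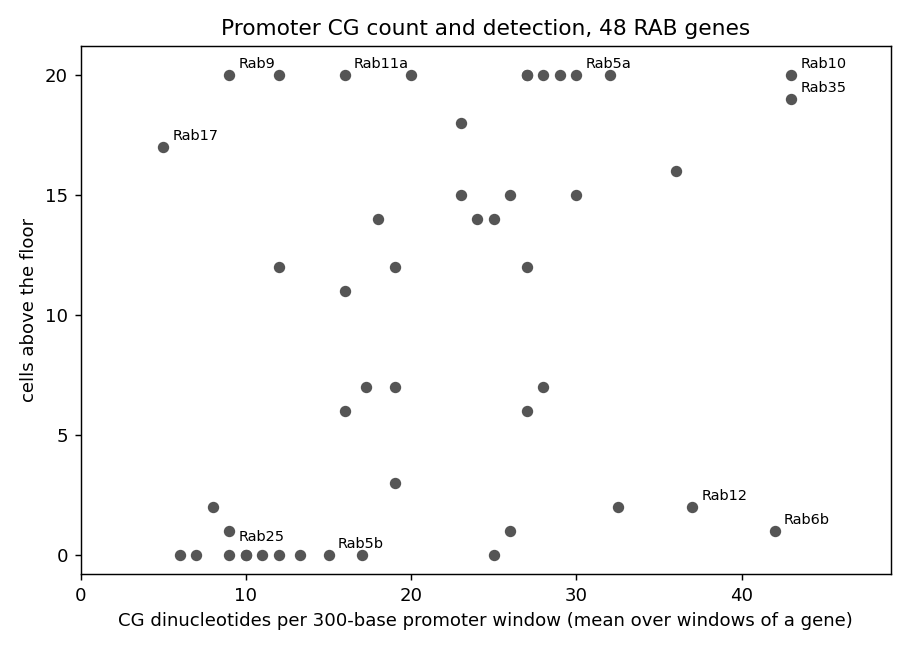
Number of cells above the floor (vertical axis, 0 to 20) against the number of CG dinucleotides per promoter window of 300 bases (horizontal axis, mean over windows of a gene); each point is 1 of 48 RAB genes. Genes found in 0 cells lie between 6 and 25, and genes found in all 20 cells lie between 9 and 43.

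Levels are given on the scale log2(intensity + 8.75) after quantile normalization, on which the lowest possible value is 3.29. A gene was counted as found in a cell when it was above the floor of that array, the 95th percentile of 270 probe sets for olfactory and vomeronasal receptors and for genes of tissues absent from the blastocyst. This floor lay between 7.0 and 7.71. Different probe sets bind with different strength, so a higher level of one gene than of another does not show more of its transcript. The median deposited intensity was 15 on the array of cell 19 and between 25.6 and 30.2 on the others. Cells 4, 8, 17 and 20 correlated least with the rest over tested genes (mean r of 0.579 to 0.620, against 0.626 to 0.663), and all lay in the primitive endoderm-like cluster described next. Pou5f1, which encodes Oct4, was above the floor in all 20 cells. Of 13 trophectoderm markers, 6 were above it in 0 cells, whereas Hand1 was above it in 20 and Cdx2 in 14, the last near the floor (7.48 ± 0.25 in primitive endoderm-like and 7.37 ± 0.44 in epiblast-like cells). The trophectoderm score was the mean of the centred levels of the 7 markers above the floor in 3 or more cells. It ran from -0.70 to 0.67 in primitive endoderm-like and from -1.65 to 1.09 in epiblast-like cells, and its part in the results was not tested. Ward clustering of the cells on 500 variable genes, with RAB genes, lineage markers and traffic genes left out, gave 10 primitive endoderm-like cells (Gata4 above the floor in 10 of 10, Fgf4 in 0) and 10 epiblast-like cells (Gata4 in 0, Fgf4 in 10 of 10). Of 20 primitive endoderm markers 14 passed a filter of 3 cells above the floor. Of these, 13 averaged at least 2-fold higher in the primitive endoderm-like cells. Hnf4a went the other way, above the floor in 6 primitive endoderm-like and 10 epiblast-like cells. Pdgfra and Lama1 were each above it in 5 epiblast-like cells as well. Of 13 epiblast markers that passed, 7 averaged at least 2-fold lower in the primitive endoderm-like cells and 6 differed by less. The separation was weak, with a mean silhouette of 0.121. These clusters were made from the same arrays, so the differences between them are described without a p-value.

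The inner cell mass cells carried a core of 13 RAB genes that was found in every cell. Those 13 of 59 are 22.0% of the family, against 14.8% of all measured genes. A further 24 RAB genes were above the floor in 3 to 19 cells, 7 in 1 or 2 cells and 15 in 0 cells, so 37 of 59 passed the filter of 3 cells (50.1% of all genes passed it), and 41.4% of all genes were found in 0 cells. The core held a member of each step of the route, namely Rab1a, Rab2a, Rab6a and Rab18 of the ER and Golgi, Rab5a of the early endosome, Rab11a, Rab11b and Rab14 of recycling endosomes, Rab7, Rab9 and Rab24 of late endosomes, lysosomes and autophagy, and Rab10 and Rab3a of transport to the surface. The count depends on the probe set and the floor: it was 6 when a gene's probe sets were averaged and 7 with the floor at the 99th percentile. A cell had between 23 and 31 of the 59 RAB genes above its floor. The primitive endoderm-like cells had between 23 and 30 (median 26) and the epiblast-like cells between 25 and 31 (median 27.5), so the clusters overlapped. Cells 4, 8, 17 and 20 had between 24 and 30.

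**Figure D2:**
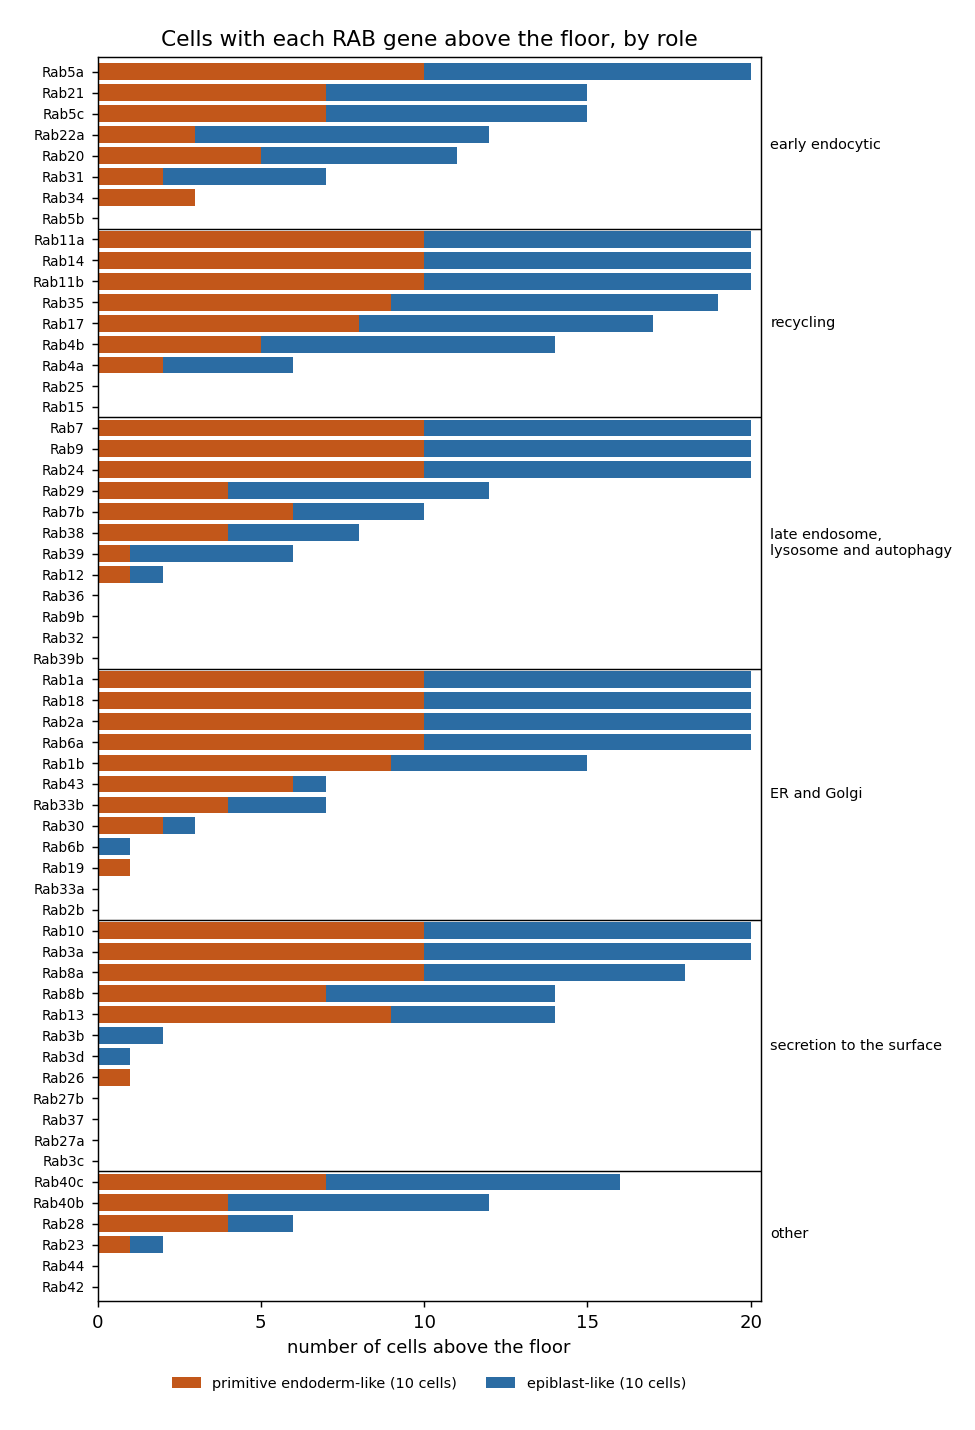
Number of cells in which each of the 59 RAB genes was above the floor (horizontal axis), in rows grouped by role; the left part of a bar counts primitive endoderm-like cells and the right part epiblast-like cells, 10 cells each. The 13 core genes reach 20, and 15 genes have no bar.

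Of the 8 early endocytic genes 1 was found in all 20 cells (12.5%, beside 14.8% of all measured genes). This was Rab5a, which encodes a GTPase of early endosome fusion. Rab5a lay between 10.77 and 11.84 in the 20 cells, with a median of 11.42 and an SD of 0.30. No cell stood apart, and the means of the clusters were 11.31 ± 0.32 in primitive endoderm-like and 11.40 ± 0.29 in epiblast-like cells (SD, n = 10 each). Its relative Rab5c was above the floor in 15 cells, with values between 5.19 and 8.70, close to the floor. Rab5b was above it in 0 cells by the probe set used and in 3 by another. Of the other early endocytic genes, Rab21, whose product binds integrins on endosomes, was found in 15 cells, Rab20 in 11, Rab31 in 7 and Rab34 in 3. Rab21 ran from 3.29 to 10.57, one of the widest ranges of the family (SD 2.09), and 7 primitive endoderm-like and 8 epiblast-like cells had it above the floor. Rab22a, of early and recycling endosomes, was found in 12 cells.

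Among the recycling genes Rab11a differed between the clusters while being high in every cell. RAB11A directs slow recycling from the perinuclear recycling endosome to the surface. Rab11a lay between 11.54 and 12.53 (median 12.06) in primitive endoderm-like cells and between 9.76 and 11.98 (median 11.14) in epiblast-like cells. In 6 of 10 primitive endoderm-like cells it was above every epiblast-like cell, and the ranges overlapped. The means were 12.03 ± 0.34 and 11.03 ± 0.64 (SD, n = 10 each), a difference of 0.996 (1.995-fold), which was larger than either SD and just under the 2-fold line used below. Of the 2689 genes found in all 20 cells, 23 had a difference at least as high (0.855%); 0.781% were at least 2-fold higher and 0.967% at least 2-fold lower. A further Rab11a probe set passed the floor in 7 primitive endoderm-like (median 8.49) and 3 epiblast-like cells (median 3.35). Rab11b, the closest relative, did not share the direction (9.52 ± 0.94 in primitive endoderm-like and 9.99 ± 0.43 in epiblast-like cells, within the larger SD), and Rab25, an epithelial relative, was found in 0 cells.

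The fast-recycling RAB4 genes were found less widely. Rab4b passed the floor in 5 primitive endoderm-like and 9 epiblast-like cells, and Rab4a in 2 and 4. In 3 primitive endoderm-like cells (11, 17 and 20, of which 17 and 20 are among those that correlated least) neither gene was above the floor, 3 cells had both and 14 had 1 of them. Rab4b lay between 3.64 and 9.25 (median 7.40) in primitive endoderm-like cells and between 6.58 and 9.28 (median 8.59) in epiblast-like cells. The upper ends of the ranges nearly coincided, and the low values were in the primitive endoderm-like cluster. Rab14, of Golgi and endosome transport, was found in all 20 cells (10.97 ± 0.63, SD, n = 20 cells) and Rab35, a GTPase of fast recycling and cytokinesis, in 19, with cell 17 at 6.47 and the others between 8.26 and 10.62. Rab17, known from apical recycling in epithelia, read 7.47 ± 0.18 over the 20 cells, only 0.25 above the floor on average, and its second probe set passed the floor in 0 cells.

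The late endosomal gene Rab7 had the smallest SD over cells of the RAB genes that passed the filter, although relative to the variance trend at its level (0.299 times) 4 RAB genes named below were lower. RAB7 drives the fusion of late endosomes with lysosomes. Rab7 lay between 11.22 and 11.89 in the 20 cells (median 11.54, SD 0.15), and its other probe set was also above the floor in every cell. Rab9, of the return from late endosomes to the Golgi, ran from 7.80 to 10.82 (median 10.25) and Rab24, linked to autophagy, from 7.41 to 10.71 (median 9.72), each with little difference between the clusters (-0.02 and -0.10). Rab29, whose product acts at the trans-Golgi and on stressed lysosomes, showed the largest difference in the family. It lay between 3.29 and 9.14 (median 4.45) in primitive endoderm-like cells, 4 of which had it above the floor, and between 4.69 and 10.81 (median 9.32) in epiblast-like cells, 8 of which had it above the floor. The clusters overlapped, since cells 1 and 16 of the epiblast-like cluster were also under the floor. Rab39 passed the floor in 1 primitive endoderm-like and 5 epiblast-like cells, and Rab38, of lysosome-related organelles, in 4 and 4. Rab7b was found in 10 cells at a level of 7.24 ± 0.33, which is at the floor, and Rab12 in 2 cells. Rab9b, Rab32, Rab36 and Rab39b were found in 0 cells.

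Among the ER and Golgi genes Rab1a was high and even, with values between 11.83 and 12.66 (median 12.35, SD 0.19). RAB1 tethers vesicles that leave the ER. Rab1b passed the floor in 9 primitive endoderm-like and 6 epiblast-like cells. Rab18, known from lipid droplets and the ER, lay between 10.14 and 11.73 (median 11.12). Rab2a (10.72 ± 0.86 in primitive endoderm-like and 10.24 ± 0.56 in epiblast-like cells, SD, n = 10 each) and Rab6a, of transport within the Golgi (10.64 ± 0.74 and 10.08 ± 0.57), averaged higher in the primitive endoderm-like cluster, within the larger SD. Counted by the sign of the difference alone, 6 of the 8 ER and Golgi genes that passed the filter averaged higher there (median difference 0.50), as did 4115 of all 9115 tested genes (median -0.05). By the same count 4 of 5 genes of transport to the surface averaged higher (median 0.43), as did 2 of 7 recycling genes (-0.15). The same held for 1 of 7 early endocytic genes (-0.38) and 1 of 7 late endosomal genes (-0.10). Of the genes counted here, Rab43, Rab13, Rab11a and Rab29 differed by more than the larger SD. The share of all tested genes past the larger SD alone is not given. Together with the 2-fold line, which Rab11a did not reach, it was 2.28% upward and 3.34% downward. The roles were chosen with earlier results of these data known, so no direction of a role is read from the counts by sign. Rab33b was found in 7 cells and Rab30 in 3. Rab43, of the Golgi, passed the floor in 6 primitive endoderm-like and 1 epiblast-like cell. Rab2b was found in 0 cells by the probe set used and in up to 5 by others, Rab33a in 0 cells, and Rab6b and Rab19 in 1 cell each.

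Of the 12 genes of transport to the surface, 2 were found in all 20 cells (16.7%, beside 14.8% of all genes). Another 4 were found in 0 cells (33.3%, beside 25.4% of all RAB genes and 41.4% of all genes). Rab10, of transport to the basolateral surface, lay between 9.10 and 11.16 in the 20 cells (median 10.64). Rab8a was found in 18 cells and Rab8b in 14, 13 cells had both, and cell 9 alone had neither above the floor. Rab8b had the largest SD of the family (2.71). It lay between 7.68 and 11.36 in the 14 cells above the floor and between 3.43 and 7.39 in the other 6, and 7 cells of each cluster were above. Of the genes known from regulated secretion, Rab27a, Rab27b, Rab3c and Rab37 were found in 0 cells, Rab3d and Rab26 in 1 and Rab3b in 2. Rab3a read 8.50 ± 0.21 in all 20 cells by the probe set used, whereas its second probe set passed the floor in 2 cells, so the probe sets disagreed. Rab13, which acts at tight junctions, passed the floor in 9 primitive endoderm-like and 5 epiblast-like cells. Outside these roles, Rab40c and Rab40b, which encode atypical members that join ubiquitin ligases, were found in 16 and 12 cells, and Rab28 and Rab23, both linked to cilia, in 6 and 2. Another probe set of Rab23 was above the floor in 4 cells. Rab15 of the recycling group and Rab42 and Rab44 were found in 0 cells.

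**Figure D3:**
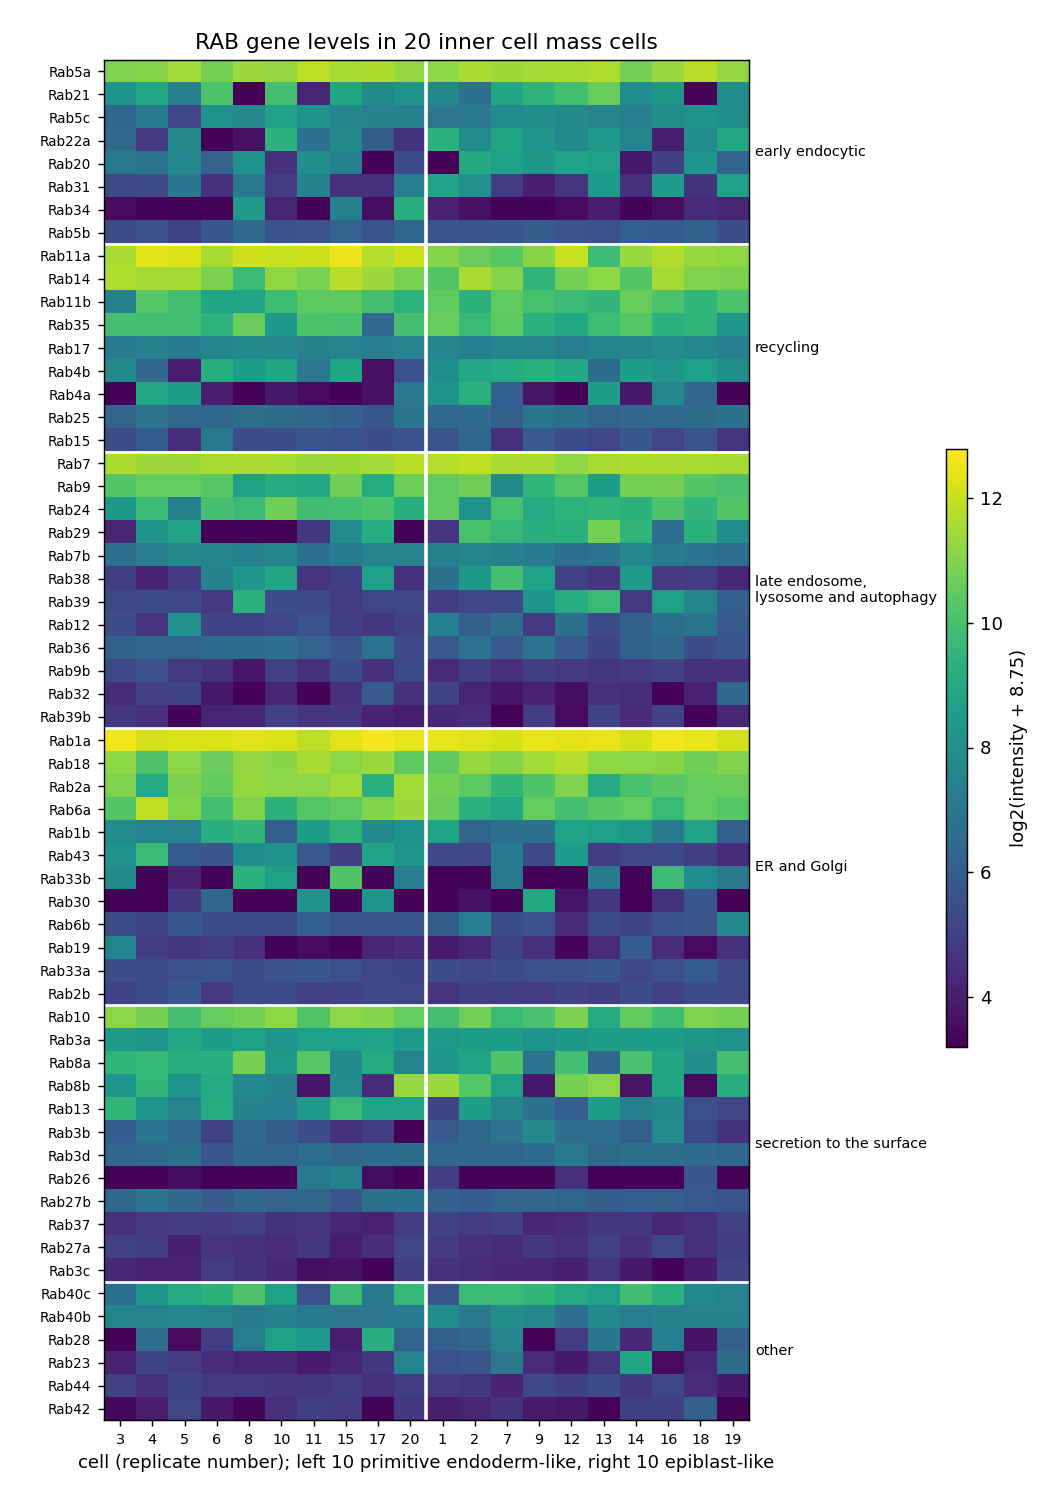
Level of each of the 59 RAB genes (rows, grouped by role) in each of the 20 cells (columns, named by replicate number), as log2(intensity + 8.75) after quantile normalization on the colour scale. The left 10 columns are primitive endoderm-like and the right 10 epiblast-like; Rab1a, Rab7 and Rab5a are bright in every column, and Rab29 and Rab8b switch between bright and dark.

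The spread over cells was tested for each RAB gene against genes of the same level. In limma's variance test with the mean level as trend, 0 of the 37 RAB genes passed at a Benjamini-Hochberg adjusted p under 0.05, and 0 had an unadjusted p under 0.05. Over all 9115 tested genes 0 passed (0%) and 30 had an unadjusted p under 0.05 (0.329%), so a count of 0 is the background here and says nothing particular about RAB genes. The smallest RAB p was that of Rab8b (unadjusted 0.0725, adjusted 0.746, limma). Rab3a, Rab7b, Rab17 and Rab40b had at most 0.15 times the variance of the trend, 4 of 37 RAB genes (10.8%) against 6.97% of the tested genes, a share near the background. Rab7b, Rab17 and Rab40b read close to the floor, and Rab3a 1.27 above it on average. For each of these 4 genes no further probe set passed the floor in more than 2 cells, and whether their readings come from the named transcripts was not tested.

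**Figure D4:**
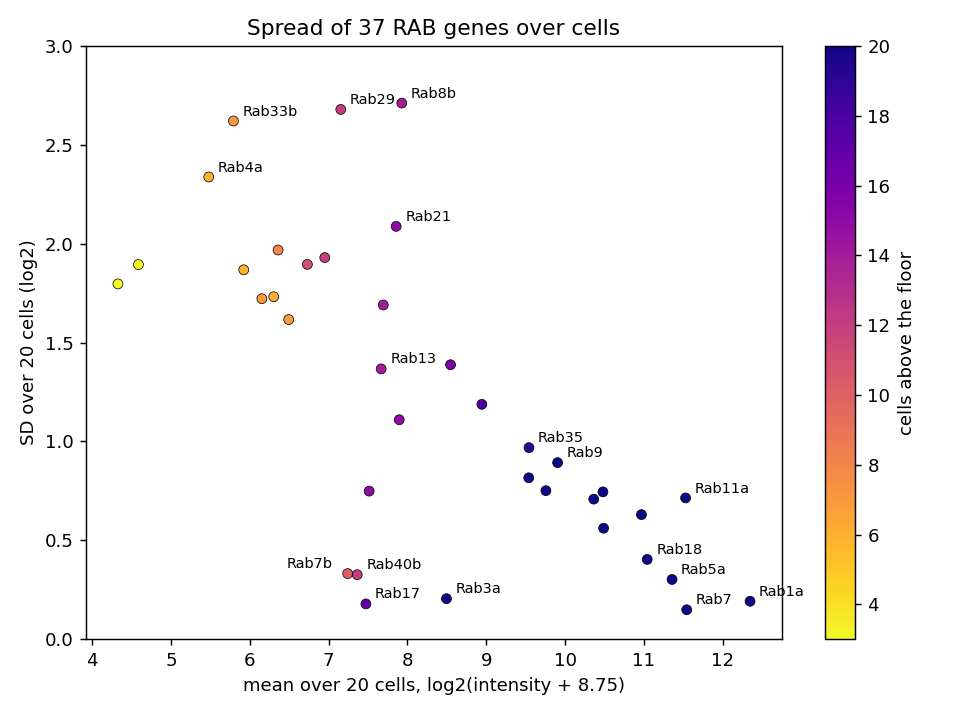
SD over the 20 cells (vertical axis, log2) against the mean level (horizontal axis, log2(intensity + 8.75)) of the 37 RAB genes that passed the filter of 3 cells; colour gives the number of cells above the floor. Rab7 and Rab1a lie at the right with SDs of 0.15 and 0.19, Rab8b, Rab29 and Rab33b have SDs above 2.6, and Rab17 and Rab3a lie at lower readings with SDs of 0.18 and 0.21.

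Between the clusters of cells, the shares of RAB genes past a 2-fold difference were near those of all tested genes. A mean at least 2-fold higher in primitive endoderm-like cells was seen for 3 of the 37 RAB genes, with 8.34% of all tested genes as background, and a mean at least 2-fold lower for 5 of 37, with 12% as background. The median difference (primitive endoderm-like minus epiblast-like) was -0.08 over the 37 genes and -0.05 over all tested genes. In 0 of 37 RAB genes did the clusters fail to overlap (0.285% of tested genes). Higher in the primitive endoderm-like cells were Rab43 (7.34 ± 1.55 and 5.65 ± 1.23 in primitive endoderm-like and epiblast-like cells), Rab13 (8.48 ± 0.87 and 6.86 ± 1.32) and Rab34 (4.94 ± 2.41 and 3.71 ± 0.40). Rab34 was found in 3 primitive endoderm-like and 0 epiblast-like cells, too dim for a fold. It is part of the count of 3, although it passed the filter only through those primitive endoderm-like cells. Its medians were 3.51 in primitive endoderm-like and 3.60 in epiblast-like cells. Lower were Rab29 (5.60 ± 2.55 and 8.71 ± 1.81), Rab22a (6.03 ± 1.95 and 7.87 ± 1.48), Rab4b (6.97 ± 2.06 and 8.41 ± 0.80), Rab39 (5.64 ± 1.33 and 6.97 ± 1.89) and Rab4a (4.93 ± 2.32 and 6.03 ± 2.35). The differences of Rab43 (1.69), Rab13 (1.62) and Rab29 (-3.11) exceeded the larger SD of the clusters, which with the 2-fold line held for 2.28% of tested genes upward and 3.34% downward, and the other 5 did not. These means include readings under the floor. With such readings raised to the floor, Rab29 alone stayed past 2-fold (-1.27), Rab13 differed by 0.94 and Rab43 by 0.60. Without cells 4, 8, 17 and 20, an alternative chosen after the data were seen, 1 gene was 2-fold higher (Rab13, 1.74) and 3 were 2-fold lower, Rab29 (-3.36), Rab39 (-1.79) and Rab4a (-1.63), while Rab34 differed by 0.45, Rab43 by 0.82, Rab22a by -0.99 and Rab4b by -0.81. Rab22a and Rab43 each rest on 1 probe set, as the 3 others of Rab22a and the 2 others of Rab43 were above the floor in 0 cells. With a gene's probe sets averaged, Rab43 differed by 0.84 and Rab22a by -0.59, both under 2-fold.

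**Figure D5:**
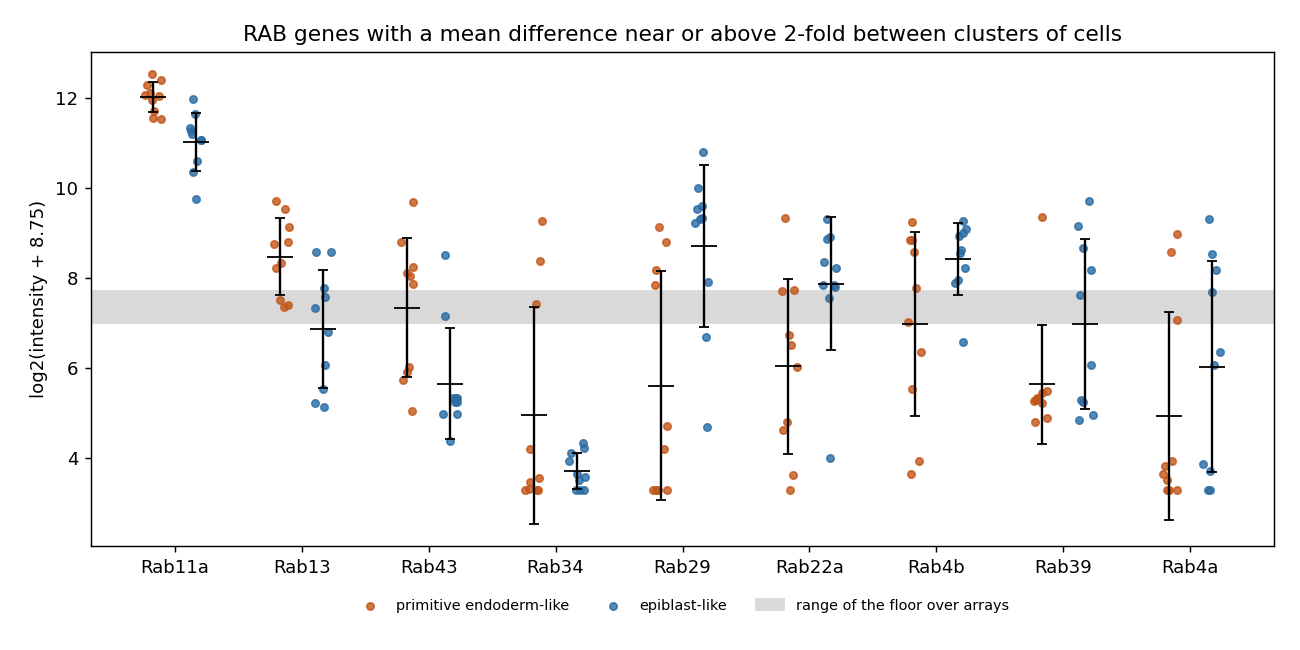
Levels of 9 RAB genes in each cell, as log2(intensity + 8.75), with primitive endoderm-like cells left and epiblast-like cells right for each gene; bars give the mean and SD of 10 cells, and the grey band is the range of the floor over arrays. Rab11a lies above the band in every cell, whereas the other 8 genes cross it in at least 1 cluster.

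Over pairs of RAB genes the correlations across cells ran in both directions. Among 666 pairs of the 37 genes the median Spearman correlation over the 20 cells was -0.01. The highest was that of Rab33b and Rab34 (0.62), which were above the floor in 7 and 3 cells, and the lowest that of Rab2a and Rab29 (-0.64). These values are the ends of 666 pairs that share the same 20 arrays and clusters, and are given without a test.

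Among RAB regulators and other traffic genes the shares past the 2-fold line varied from list to list, and the counts stand against the same background of 8.34% higher and 12% lower. In this paragraph and the next, pairs of means are of primitive endoderm-like and then epiblast-like cells (SD, n = 10 each). Of 7 tested genes of the RAB cycle (prenylation, retrieval and other RAB-binding factors), 0 were 2-fold higher and 1 was lower, Rabif (7.90 ± 2.56 and 9.21 ± 1.13). Its difference was within the larger SD, and was -0.57 with readings raised to the floor. Of 19 GEF genes, 2 were higher and 4 lower. The higher ones were Rgp1, of the exchange factor of RAB6 (5.99 ± 2.56 and 4.60 ± 1.64), and Ankrd27, of RAB21 (8.21 ± 1.86 and 7.04 ± 2.31). The leading lower ones were Dennd4c, of RAB10 (6.27 ± 2.59 and 8.17 ± 1.20), and Mon1a, of the exchange factor of RAB7 (6.58 ± 1.93 and 8.17 ± 1.31). With readings raised to the floor these 4 GEF genes differed by less than 1. Rgp1 was found in 5 primitive endoderm-like and 0 epiblast-like cells, so it passed the filter only through the cluster where it was higher. Of 21 GAP genes, 0 were higher and 1 lower, Tbc1d10b, which was found in all 20 cells (8.52 ± 0.88 and 9.91 ± 1.10). Of 23 effector genes, 5 were higher and 4 lower. The leading higher ones were Rab11fip5, whose product binds RAB11 (6.83 ± 2.46 and 4.58 ± 1.54), and Bicd2, whose product links RAB6 vesicles to dynein (7.88 ± 2.26 and 5.85 ± 2.08). The leading lower ones were Rbsn, whose product binds RAB4 and RAB5 (6.21 ± 2.65 and 7.98 ± 2.02), and Plekhm1, whose product binds RAB7 (8.10 ± 1.38 and 9.46 ± 0.67). With readings raised to the floor, Plekhm1 stayed past 2-fold (-1.09), whereas Rab11fip5 differed by 0.91, Bicd2 by 0.97 and Rbsn by -0.62. Rab11fip5 was found in 6 primitive endoderm-like and 0 epiblast-like cells, so it too passed the filter only through the cluster where it was higher.

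Of 7 tested endocytic receptor genes, 1 was higher and 1 lower. The higher one was Cubn, a receptor gene that is also a primitive endoderm marker (10.85 ± 1.12 and 4.03 ± 2.09). Tfrc, the transferrin receptor gene whose product cycles through recycling endosomes, was lower, with values between 3.29 and 11.67 in primitive endoderm-like cells and between 11.27 and 12.29 in epiblast-like cells. It was above the floor in 8 and 10 cells, and its difference of -2.70 was within the larger SD. Of 23 clathrin and adaptor genes 1 was higher, Itsn1 (1.06), and 3 lower, led by Itsn2 (-1.19) and Ap2a2 (-1.11). Of 17 recycling and retromer genes 2 were higher, Ehd4 (1.49) and Snx2, and 2 lower, Vps26a and Vps53 (-1.09). Snx2, of endosome-to-Golgi retrieval, lay between 12.27 and 12.87 in primitive endoderm-like and between 10.85 and 12.18 in epiblast-like cells. The clusters thus did not overlap, which held for 26 of all 9115 tested genes (0.285%). Snx2 is named for its difference, so no trait of retrieval genes is read from it. Vps26a, of the same retrieval, lay between 7.04 and 9.85 in primitive endoderm-like and between 9.08 and 10.33 in epiblast-like cells, a difference of -1.34 with overlap. Of 28 endosomal sorting and tethering genes (ESCRT and HOPS) 4 were higher, led by Vps25 (2.37) and Vps4a (9.91 ± 0.58 and 8.40 ± 1.54), and 3 lower, led by Vps33a (-2.08) and Vps37c (-2.01). Vps25 was found in 4 primitive endoderm-like and 0 epiblast-like cells, so it passed the filter only through the cluster where it was higher. Of 30 ER and Golgi coat genes 1 was higher, Sec24d (1.13), and 0 lower, and of 9 exocyst genes 0 were higher and 1 lower, Exoc6 (-1.30). Of 30 SNARE genes 1 was higher, Vamp3 (1.16), and 3 lower, led by Gosr1 (-2.11) and Vamp4 (-2.03). With readings raised to the floor, Cubn (3.36), Tfrc (-1.95), Snx2 (1.12), Vps26a (-1.31), Vps4a (1.29) and Exoc6 (-1.19) stayed past 2-fold. The other genes named in this paragraph then differed by less than 1 in size. Among them, Vps25 differed by 0.47, Vps33a by -0.47, Vps37c by -0.70, Gosr1 by -0.99 and Vamp4 by -0.38.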

How the data were processed

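Each of 20 arrays held the PCR-amplified cDNA of 1 cell, labelled as biotin cRNA by the one-cycle Affymetrix protocol, per the labels' protocols. The authors deposited 1 linear intensity per probe set (1 to 26615.9). How probe sets were summarised and normalized is not given in the sources used here. Of 45037 probe sets that were not controls, 34945 had 1 gene, 932 several and 9160 none in GEO's platform annotation. All 59 RAB genes matched RefSeq (GRCm38.p6) by Entrez identifier.

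Intensities were quantile normalized and log2(intensity + 8.75) was taken, the pseudocount being the arrays' median 25th percentile. The gene lists, roles and members were chosen with earlier results of these data known. limma 3.58.1 (R 4.3.3) gave the variance test (squeezeVar, F test, Benjamini-Hochberg) over the 9115 genes that 3 or more cells had above the floor, after a check on simulated data. The check drew normally distributed values. Readings here stop at a lowest value, so it does not show how the test performs on them. Cells were clustered by Ward's method (scipy 1.17.1), choosing among 2 to 5 clusters by silhouette (scikit-learn 1.9.0). RAB genes were named with values for a difference of at least 1, for being among the 5 brightest, or for the 5 largest and 5 smallest SDs, and list genes as the 2 with the largest difference of at least 1 each way. Values of other RAB genes (such as Rab9, Rab10 and Rab35) were added after they were seen. An order of paralogues by level is not given, since probe sets differ in brightness. P-values measure the spread between these cells only, and the number of arrays limits the precision. Alternatives covered normalization, pseudocount, probe set, floor, filter, clusters and left-out cells.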

Additional observations from a re-analysis of the deposited data

How the results depend on the processing

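No paired analysis was possible because the labels give 1 group. The count of RAB genes found in every cell was 13, and changed by over 1.5 times to 6 with the mean of all probe sets and to 7 with the floor at the 99th percentile. The count at least 2-fold higher in primitive endoderm-like cells was 3, and became 0 with values raised to the floor, 0 with the floor at the 99th percentile (fewer genes pass the filter there) and 1 without cells 4, 8, 17 and 20. The count at least 2-fold lower was 5, and became 1 with values raised to the floor and 3 without those cells. Without cell 16 or cell 19 the counts were 4 higher in either case, and 4 and 5 lower, and Rab11a, at 0.996 with every cell, then differed by 1.065 and 1.016; averaging its probe sets gave 1.548, and it was 0.968 with deposited values and 0.961 without cells 4, 8, 17 and 20. The variance test called 0 RAB genes under all 9 alternatives. With the main settings it called 0 of all 9115 tested genes, including 0 of 13 tested epiblast markers, with Fgf4 among them. The unchanged count therefore says nothing particular about RAB genes. The median difference stayed between -0.10 and -0.04. The differences of the 9 plotted genes kept their direction in the recomputed values, among which the split by Fgf4 gave the same clusters and so could not change any. Signal over the floor limits the genes found in few cells.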
